A study of Mus musculus with 1 sample.

Results

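The genes described here encode ion and water channels and their accessory subunits: potassium, voltage-gated and epithelial sodium, voltage-gated calcium, TRP, polycystin, chloride, anoctamin, Piezo and aquaporin genes. They were chosen by a rule on gene symbols, from probe sets that the array's annotation pairs with a single symbol. The choice was made with earlier results of these data known. The rule found 178 genes with 361 probe sets, of 18193 genes named in this way. Of these 178, Trpc4ap encodes an adaptor rather than a channel, and Kcnmb4os1 and Kcnmb4os2 are antisense transcripts, and all 3 were kept because their symbols meet the rule.

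The data are 1 Affymetrix array of total RNA, prepared from surface epithelium of the ovary of wild type mice at 3 months of age. These cells form the simple mesothelial layer around the ovary. The study design lists 3 genotypes, and the wild type sample is the only one analysed here, so there is no comparison between genotypes and no replicate error on any value. The labels do not say whether cells of several mice were pooled.

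Ion channels are membrane proteins that let ions pass down their electrochemical gradients. Voltage-gated potassium, sodium and calcium channels open when the membrane potential changes and drive the action potentials of nerve and muscle. Epithelia, which do not fire, rely more on background potassium channels, chloride channels, water channels and channels that open on stretch, swelling or a calcium signal, and most cell types use chloride exchangers in endosomes and lysosomes. Many channels are complexes of a pore subunit with accessory subunits that set its gating or its delivery to the membrane.

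Each probe set had 1 deposited intensity on a linear scale, and intensities over the whole array ran between 6 and 32341. Genes whose brightest probe set exceeded 46.5 were counted as above background. That limit marks the 95th percentile of a background set, 126 probe sets of 112 genes for smell, pheromone and bitter taste receptors and hair keratin-associated proteins, families with no known place in the ovary. These background probe sets ran between 7 and 125 with a median of 13, and 7 of them (5.56%) passed the limit by construction. Different probe sets bind their targets with different affinity, so no gene is ranked against another by its intensity.

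Of the surface epithelium markers checked, 15 of 15 were above background, with brightest probe sets at 1179 to 20836. The marker lists were chosen with earlier results of these data known, so they are no independent check of the cells. Of the markers of other cells, 9 of 10 passed for smooth muscle and pericytes (16 to 23141). For fibroblasts 7 of 10 passed (13 to 29972) and for macrophages 8 of 11 (16 to 2142). Over all named genes 62.8% passed, and a count near that share does not show that a cell type was present. Markers of granulosa cells passed in 4 of 7 measured cases (34 to 1438) and those of theca and luteal cells in 3 of 5 (18 to 1229). For excitable cells, 4 of 12 neuron markers passed (9 to 188), namely Prph at 188, Eno2 at 97, Tubb3 at 68 and Rbfox3 at 63. Snap25, a synaptic vesicle fusion protein, was among those that did not, at 9. Of the striated muscle markers 5 of 11 passed (11 to 75). Schwann cell markers passed in 3 of 6 measured cases (14 to 2526), and interstitial cell of Cajal markers in 2 of 4 (19 to 8816), of which Ano1 is itself a channel gene. Endothelial markers passed in 2 of 10 cases (11 to 1813), oviduct and ciliated cell markers in 2 of 7 (13 to 115), lymphocyte markers in 0 of 8 (10 to 46) and oocyte markers in 0 of 10 (7 to 42). Whether the genes that passed were expressed by other cells or by the epithelium itself was not tested. Fewer cells of a type and less RNA per cell cannot be told apart in such a sample. The part of any other cells in the channel levels was not tested.

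Fewer channel genes than other genes were above background. Of 178 channel genes 62 (34.8%) passed the limit, against 11370 of the 18015 other named genes (63.1%) and 62.8% of all named genes. The median intensity of the brightest probe set was 32 for channel genes and 137 for the other genes. By single probe sets, 88 of 361 (24.4%) were above the limit, where the share over all named probe sets was 55.1%. Only 25 channel genes (14%) reached 4 times the limit, against 8242 other genes (45.8%; over all named genes, 45.4%). With 1 array there is no test of these differences, and they describe this library. The count depends on the limit: with lower limits, at the 90th percentile of background or from olfactory and vomeronasal receptors alone, 102 and 96 of the 178 passed.

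The channel share was the lower one at every number of probe sets per gene. Among genes with 1 probe set, 22 of 77 channel genes (28.6%) and 47.4% of the other genes were above background. With 2 probe sets the shares were 41.5% of channel genes and 72.2% of other genes, with 3 they were 27.3% and 83.4%, and with 4 they were 47.4% and 88.7%. At the shares of other genes with as many probe sets, 117 of the 178 channel genes (65.5%) would have been above the limit, where 62 were. The 116 channel genes not above the limit had brightest probe sets between 8 and 46, and 22 of them were at or below the background median of 13.

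**Figure D1:**
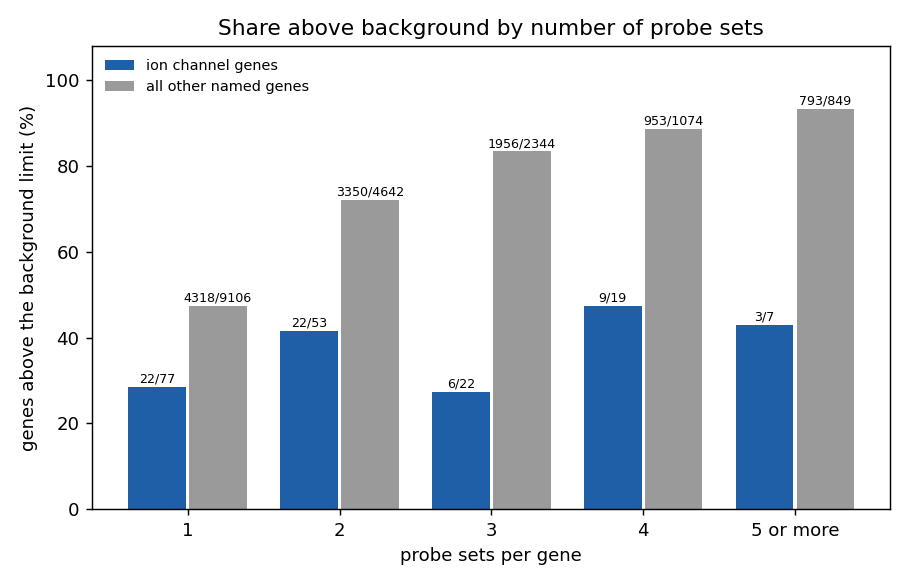
Percentage of genes above the background limit (y axis) by the number of probe sets per gene (x axis), with channel genes in blue at the left of each pair, all other named genes in grey, and counts over the bars. The channel share is lower at every number of probe sets, for example 28.6% against 47.4% with 1 probe set.

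Promoter sequences of 300 bases, from 250 before to 50 after the gene start, were taken from RefSeq (GRCm38.p6). They were found for 140 of the 178 channel genes (78.7%), too few for a comparison of promoters over the whole set, which is void. They were found for 24 of the 25 genes at 4 times the limit or more. In these 24 windows the dinucleotide CG occurred 7 to 46 times with a median of 20.5, and 20 of them (83.3%) held 15 or more. Among 17486 protein-coding genes in the same table the median was 13 and 47.4% held 15 or more. The letters TATAAA, searched on both strands, were in 1 of the 24 windows (4.17%), that of Piezo1, against 13.3% of protein-coding genes. Both are descriptions of these windows and were not tested. The 24 genes were picked by their intensity and the protein-coding genes were not, so the shares cannot be read as a trait of channel genes.

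Of the 24 windows, those with the fewest, a middle number and the most CG are shown, with each CG in capitals. Whether the transcripts measured on the array start in these windows was not tested. Kcnab1 (chr3:64948962-64949261, plus strand, 3787 on the array) holds 7, Clcn5 (chrX:7319309-7319608, minus strand, 1521) holds 19, and Aqp5 (chr15:99590778-99591077, plus strand, 800) holds 46. Their GC contents are 46.7%, 56% and 79.7%.
Kcnab1: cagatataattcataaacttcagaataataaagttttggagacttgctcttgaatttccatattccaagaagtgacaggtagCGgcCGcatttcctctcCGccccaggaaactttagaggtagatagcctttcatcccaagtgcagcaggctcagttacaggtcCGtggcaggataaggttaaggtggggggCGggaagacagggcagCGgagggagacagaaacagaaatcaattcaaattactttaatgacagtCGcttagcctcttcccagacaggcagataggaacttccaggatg
Clcn5: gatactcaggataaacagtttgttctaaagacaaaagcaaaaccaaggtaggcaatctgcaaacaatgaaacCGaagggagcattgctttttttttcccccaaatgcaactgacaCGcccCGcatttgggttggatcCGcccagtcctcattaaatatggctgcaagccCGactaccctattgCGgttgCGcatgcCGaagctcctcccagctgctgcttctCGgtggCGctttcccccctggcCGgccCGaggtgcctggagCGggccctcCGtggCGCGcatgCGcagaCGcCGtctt
Aqp5: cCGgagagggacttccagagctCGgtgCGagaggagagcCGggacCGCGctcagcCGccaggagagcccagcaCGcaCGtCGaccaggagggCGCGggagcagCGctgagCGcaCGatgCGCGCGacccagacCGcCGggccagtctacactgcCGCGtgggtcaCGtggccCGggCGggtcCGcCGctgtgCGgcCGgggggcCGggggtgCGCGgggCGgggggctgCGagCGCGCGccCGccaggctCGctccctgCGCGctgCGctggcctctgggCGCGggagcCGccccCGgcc
The Aqp5 window holds CG along its whole length, and the Kcnab1 window at a few places.

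The families differed widely in how many members were above background. The Clcn family had 6 of 7 members above it, the Clic family 4 of 5 and the Piezo family 2 of 2, and these were the 3 families of 17 whose share exceeded the 62.8% of all named genes. At the other end stood the epithelial sodium channel with 0 of 3 subunits and the voltage-gated sodium channels with 2 of 11. The place of the epithelial sodium channel depends on the limit. Its subunits had 43, 33 and 32, and all 3 passed when the limit was lowered to 29.3 or 25.5. The voltage-gated sodium count stayed at 2 with those limits. Without the Clcn, Clic and Piezo genes, 50 of 164 channel genes (30.5%) were above the limit. Grouped by ion, the chloride count was 13 of 20 (65%), close to the 62.8% of all named genes. That group covers the Clcn, Clic, anoctamin and Cftr genes, so it holds exchangers, a scramblase and Clic proteins besides chloride channels. The count was 8 of 24 for calcium channel genes, 24 of 83 for potassium channel genes and 2 of 14 for sodium channel genes.

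**Figure D2:**
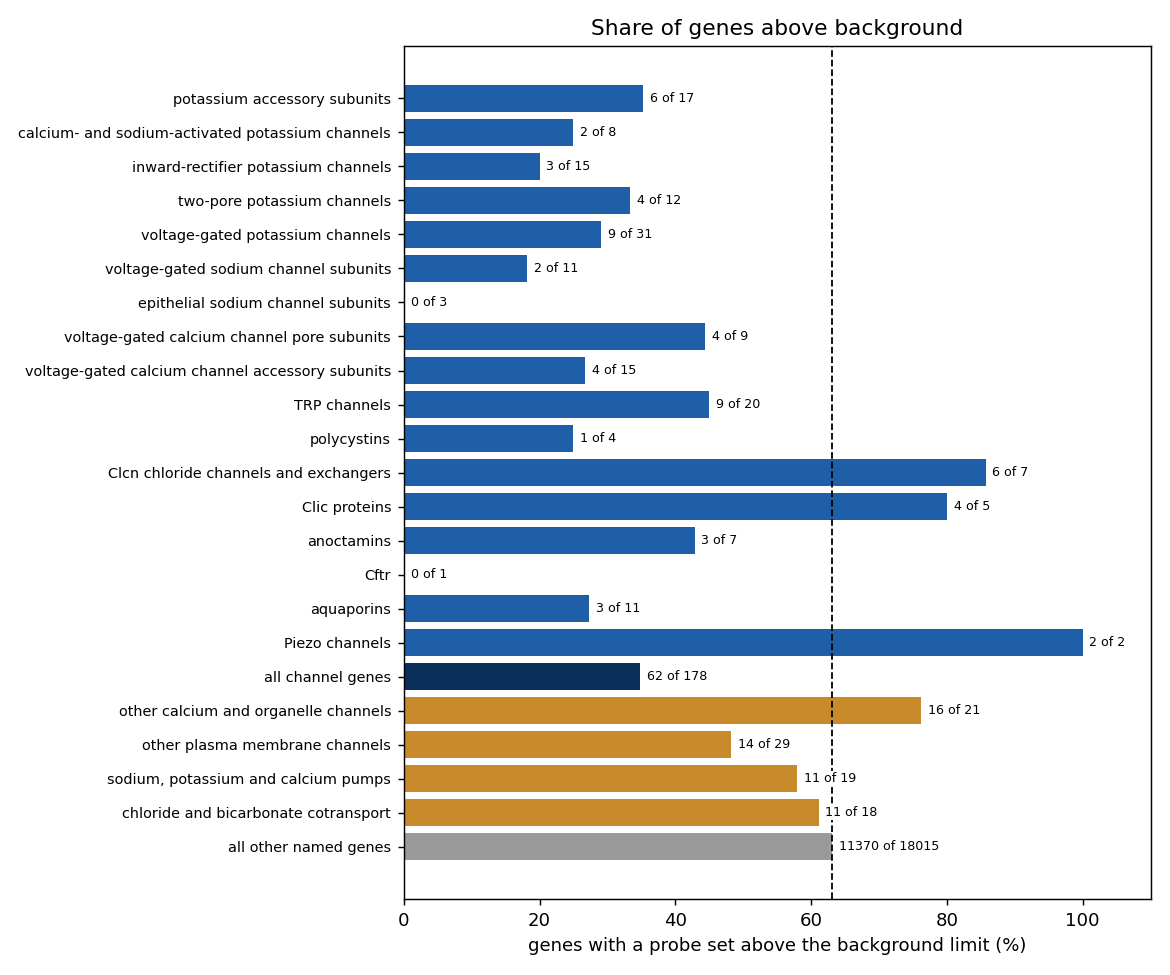
Percentage of genes with a probe set above the background limit (x axis) for each channel family (blue), all channel genes (dark blue), 4 lists of other ion transport genes (ochre) and all other named genes (grey, dashed line), with counts beside the bars. The bars of Clcn (6 of 7), Clic (4 of 5) and Piezo (2 of 2) pass the dashed line, and the other 14 channel families lie short of it.

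**Figure D3:**
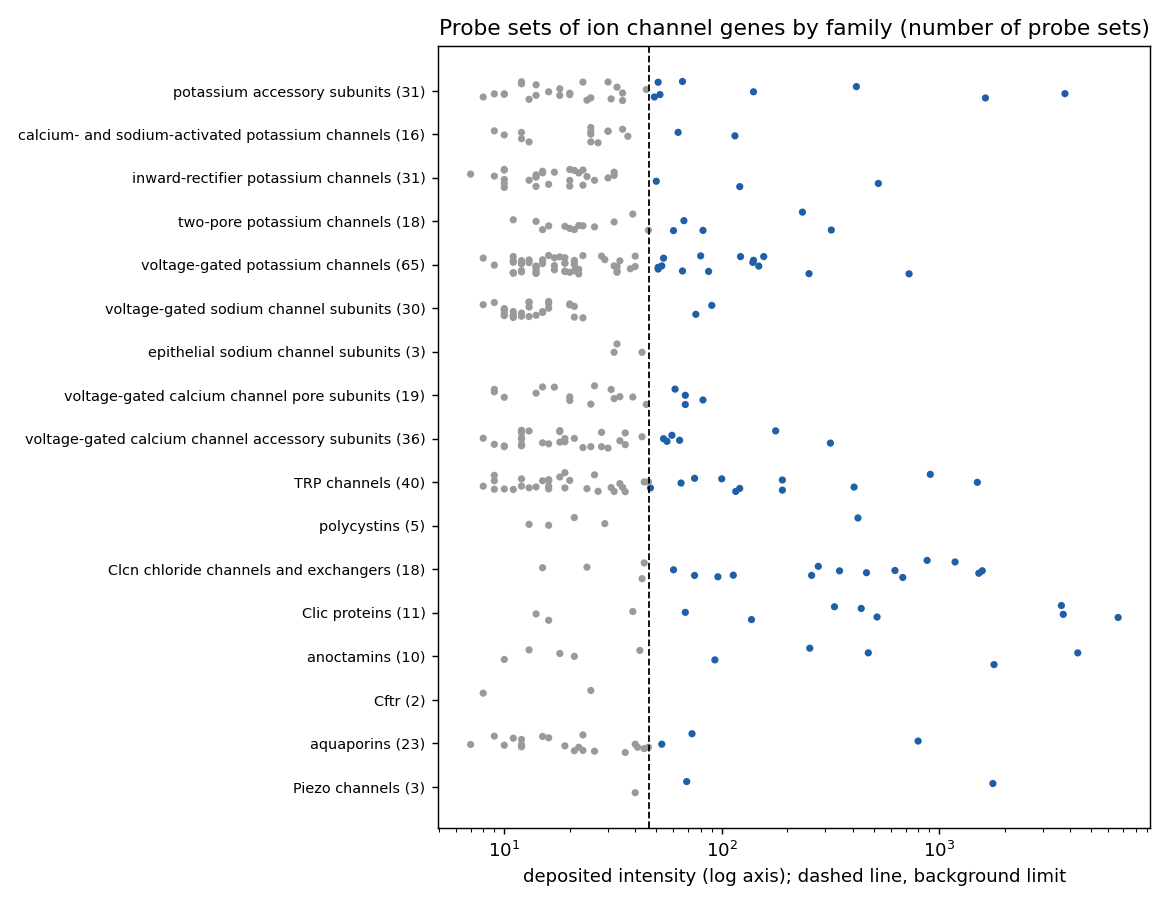
Intensity on a log axis of each of the 361 channel probe sets, 1 point each, by family, with points above the background limit (dashed line, 46.5) in blue and the rest in grey. The 30 probe sets of voltage-gated sodium channel subunits lie between 8 and 90, while those of the Clic family reach 6650.

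Of the Clcn genes above background, Clcn3, Clcn4, Clcn5 and Clcn2 passed on every probe set, and Clcn6 and Clcn7 on 1 each. Clcn3, Clcn4 and Clcn5 encode chloride-proton exchangers that help acidify endosomes. Clcn3 had 5 probe sets at 1183, 680, 463, 259 and 96, all above the limit. Clcn4 had 1578 and 880. Clcn5 had 1521, 626, 75 and 60, so its 4 probe sets all passed but spread over an SD of 2.29 on the log2 scale. The brightest probe sets of Clcn3 and Clcn5 have identifiers that mark probes shared with other sequences, and the next values of 680 and 626 come from probe sets without that mark.

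Clcn7, the lysosomal member, had 278 on 1 of 3 probe sets, with 44 and 24 on the others. Clcn2 encodes a chloride channel of the plasma membrane and had 348 on its only probe set. Clcn6, an exchanger of late endosomes, had 113 and 43, on both sides of the limit. Clcn1, the chloride channel of skeletal muscle, had 15 and was the 1 member of this family not above background.

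The Clic genes encode proteins with a glutathione transferase fold that exist in soluble and membrane-bound forms. Clic1 had 6650 on its only probe set. Clic4 had 3719, 3647 and 518, all above the limit. Clic5, which is tied to the actin cortex of microvilli, had 438, 330, 137 and 14, with 3 of 4 probe sets above the limit. Clic6 had 68 and 16, and Clic3 had 39, below the limit.

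Of 7 anoctamin genes, 3 were above background, and every probe set of these 3 passed. Ano6, a calcium-activated scramblase that moves phospholipids between the leaflets of the membrane, had 4336 and 1787. Ano10 had 472 on its only probe set. Ano1, a calcium-activated chloride channel of secretory epithelia and pacemaker cells, had 254 and 93, the higher value from a probe set whose identifier marks shared probes. The remaining Ano3, Ano4, Ano8 and Ano9 had at most 13, 18, 42 and 21. Cftr, the cyclic AMP-regulated chloride channel of secretory epithelia, had 25 and 8, both below the limit.

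**Figure D4:**
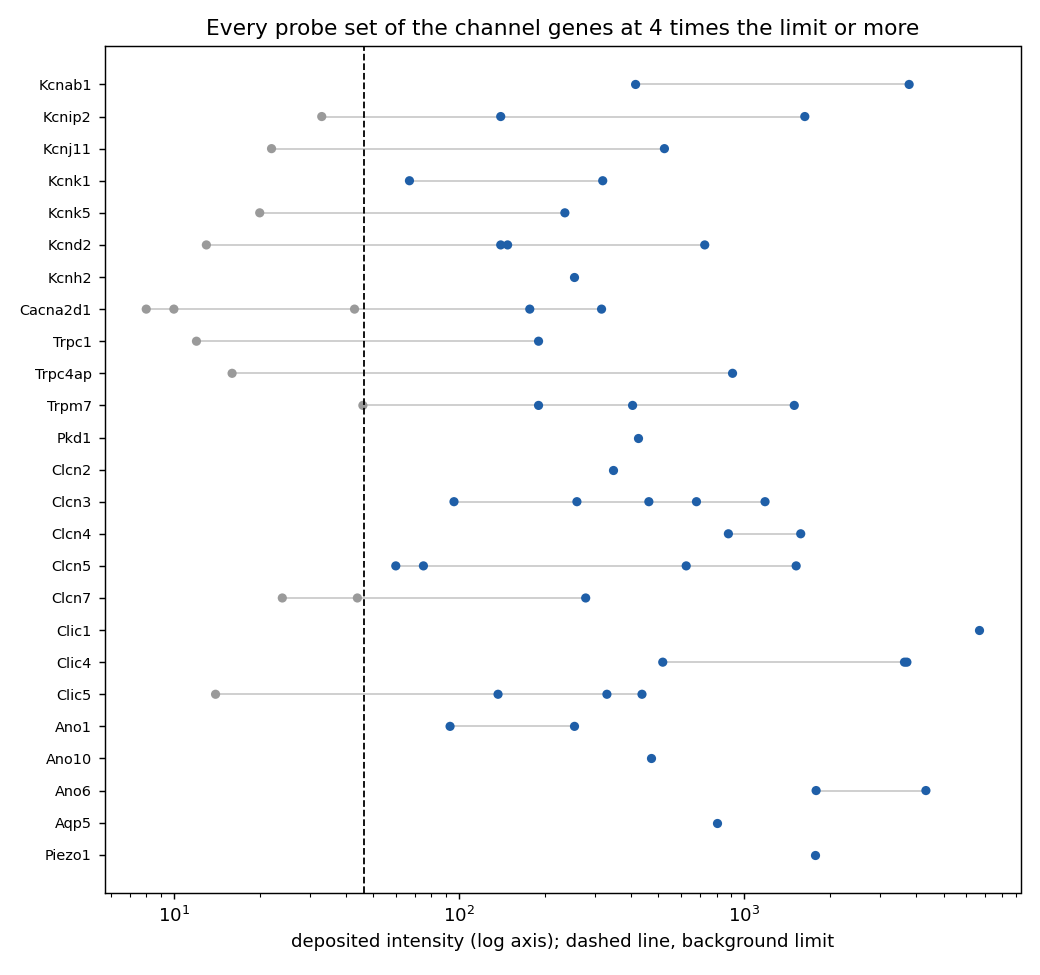
Intensity on a log axis of every probe set of the 25 channel genes whose brightest probe set was at least 4 times the background limit (dashed line), in the order of their families, with blue points above the limit and grey points below it. The 3 probe sets of Clic4 and the 5 of Clcn3 all lie above the line, while Cacna2d1 has points between 8 and 316.

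Among potassium channel genes, every family had a smaller share above background than the 62.8% of all named genes. Of 31 voltage-gated pore genes 9 were above the limit, of 15 inward rectifiers 3, of 12 two-pore channels 4, of 8 calcium- and sodium-activated channels 2, and of 17 accessory genes 6. No Kcnq gene was above it among 3 measured, and none of the 9 Kcnf, Kcng, Kcns and Kcnv genes, which mostly encode silent subunits that modify others.

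Kcnd2 encodes a pore subunit of the rapidly inactivating A-type current, and Kcnip2 encodes a calcium-binding protein that assembles with Kcnd channels. Kcnd2 had 727, 148, 140 and 13, with 3 of 4 probe sets above the limit. Kcnip2 had 1631, 140 and 33, with 2 of 3 above. Kcnd1, a related pore, had 156, 21 and 15, and Kcnd3 had at most 33. The other Kcnip genes, Kcnip1, Kcnip3 and Kcnip4, had at most 25, 45 and 12. A pore gene of the A-type current and its partner were both above background in this library.

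Kcnab1, a beta subunit with an oxidoreductase fold that binds Kcna pores, had 3787 and 416. The identifiers of both probe sets mark several transcripts of the same gene, so Kcnab1 has no value once marked probe sets are left out. Its relatives Kcnab2 and Kcnab3 had 51 and 49 on their brightest probe sets, just over the limit. Among the Kcna pores themselves 2 of 7 were above background, Kcna7 at 80 and Kcna1 at 54 on 1 of 4 probe sets. The other 5, among them Kcna2 and Kcna5, had at most 28.

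Kcnh2, whose channel repolarises the heart, had 252 on its only probe set, which is marked for several transcripts. Kcnh3, an elk-type channel of brain, had 139, 53, 33 and 19, and Kcnh1, the ether-a-go-go channel, had 66 and 51. Kcnc4 had 122 and 87, and Kcnc1 had 51 on 1 of 4 probe sets. Both encode channels of the fast-firing type. Kcnq1, a channel of heart and of many epithelia, had 40, and Kcne1, its accessory subunit in the heart, had at most 35.

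Two-pore potassium channels carry the background current that sets the resting potential. Kcnk1 had 319 and 67. Kcnk5, an alkali-activated channel of kidney epithelium, had 235 and 20, on both sides of the limit. Kcnk4, which opens on membrane stretch, had 82, and Kcnk6 had 60. Kcnk7 had 46, just under the limit, and Kcnk2 and Kcnk3 had at most 15 and 39.

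Of the inward rectifiers, Kcnj11, the pore of ATP-sensitive potassium channels in beta cells and heart, had 525 on 1 probe set and 22 on the other. Kcnj8, the pore of the related channel of vascular smooth muscle, had 121. Kcnj4 had 50. The other 12 had brightest probe sets between 9 and 32, among them Kcnj2, the classical inward rectifier of heart and muscle, at 9 and Kcnj10 of glia at 16.

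Kcnn4, a calcium-activated potassium channel of epithelial and blood cells, had 115 and 30. Kcnma1, the large-conductance calcium-activated channel of smooth muscle and neurons, had 63 on 1 of 5 probe sets and 9 to 25 on the others. Both genes passed on a probe set marked for several transcripts, and without marked probe sets 0 genes of this family were above the limit. Kcnmb1, its beta subunit in smooth muscle, had 20 and 18, in a sample where Acta2, smooth muscle actin, had 23141. Kcnmb4, another beta subunit, had 52, and Kcne4, a small accessory subunit, had 66.

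Voltage-gated sodium channels were at background. None of the 8 pore genes, from Scn1a to Scn11a, was above the limit, and their brightest probe sets ran between 11 and 21. Scn8a, a channel of nodes of Ranvier, had 5 probe sets between 13 and 16, and Scn9a, a channel of sensory and sympathetic neurons, had 5 between 9 and 21. Of the 3 beta subunits, which also act in cell adhesion, Scn2b had 90, 23 and 20, Scn3b had 76 and 11, and Scn4b had 21. Each of the 2 that passed did so on 1 probe set. The epithelial sodium channel, which takes up sodium in kidney, colon and lung, had 43 for Scnn1a, 33 for Scnn1g and 32 for Scnn1b, all above the background median of 13 and below the limit.

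Calcium channel genes were low, and none of the 9 pore genes reached 4 times the limit. The T-type genes Cacna1g and Cacna1h, whose channels open at low voltage, had 82 and 61 on their brightest probe sets. Cacna1a, the pore of the P/Q type of synapses, had 68 on 1 of 4 probe sets, and Cacna1f, the L-type pore of the retina, had 68. Cacna1c, the L-type pore of smooth muscle and heart, had 32 and 31, below the limit. Cacna1d and Cacna1s, 2 other L-type genes, had at most 20 and 15.

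Cacna2d1 encodes an alpha-2-delta subunit, which carries the pore to the membrane and binds gabapentin. It had 316, 177, 43, 10 and 8, so 2 of 5 probe sets passed, with an SD of 2.38 on the log2 scale. The brightest probe sets of the other 3 Cacna2d genes lay between 18 and 25. Of 3 beta subunit genes, Cacnb1 had 56, 54, 28 and 18, Cacnb2 had 59 and 15, and Cacnb4 had at most 12. Of 8 Cacng genes only Cacng2, which encodes a regulator of glutamate receptors, was above the limit, at 64 on 1 of 3 probe sets.

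TRP channels are cation channels that answer to lipids, heat, stretch or chemical signals, and 8 of 19 were above background without the adaptor Trpc4ap. Trpm7, a channel with a kinase domain that takes up magnesium and zinc in most cells, had 1498, 406, 190 and 46, the last just under the limit. Trpm6, its relative in kidney and gut, had 116 and 27. Trpm4, a calcium-activated cation channel, had 121, and Trpm2, which opens on ADP-ribose, had 65. Trpc4ap, the adaptor, had 910 and 16.

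Trpc1 had 190 and 12, Trpc7 had 100, and Trpc6, a channel of smooth muscle and kidney podocytes, had 47, at the limit. Trpv2 had 75. The sensory channels were at background, with Trpv1, the capsaicin receptor, at 12, Trpm8, the cold receptor, at 9 and Trpa1, the irritant receptor, at 24. Trpv4, which answers to stretch and osmotic change in epithelia, had 35.

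Of the polycystins, Pkd1 had 423 on its only probe set. Its product is a receptor-like protein of the primary cilium that is lost in polycystic kidney disease. Pkd1l2, Pkd2l1 and Pkd2l2 had at most 29, 21 and 16. Pkd2 was not among the 4 polycystin genes with a probe set of 1 symbol, so it has no value here. Piezo1, a channel that opens when the membrane is stretched, had 1765 on its only probe set, which is marked for several transcripts, so that without marked probe sets 1 Piezo gene passed in place of 2. Piezo2, the main touch channel of sensory neurons, had 69 and 40.

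Among 11 aquaporins, which conduct water and in part glycerol, Aqp5, the gene with the CG-rich promoter window, had 800 on its only probe set. Aqp5 is the water channel of salivary, tear and airway glands. Aqp2, the vasopressin-regulated channel of the kidney collecting duct, had 73, and Aqp12 had 53. Aqp3 and Aqp11 had at most 46 and 44, just under the limit. Aqp1, a channel of vessel endothelium and kidney, had 23, and Aqp4, the channel of astrocytes, had at most 23.

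Many calls rested on 1 of several probe sets. Of 101 channel genes with several probe sets 40 were above background, and in 30 of these (75%) some probe sets passed and others did not, where the share over all named genes of that kind was 59.3%. Every probe set passed for 32 channel genes (18%), of which 22 have only 1, while 39.7% of all named genes had every probe set above the limit. For channel genes above background with several probe sets, the SD of their log2 values had a median of 1.44. Over all named genes of that kind the median was higher, at 1.79. Close to the limit lay 8 genes within 1.2 times above it and 12 within 1.2 times below it. A total of 27 channel genes exceeded 125, the highest background probe set: the 25 at 4 times the limit or more, with Kcnd1 and Kcnh3.

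Channel genes often lie beside each other in the genome, as in the assembly GRCm38.p6. Among them were 18 runs of channel genes with no other protein-coding gene between them, with 41 genes in all, and 5 of the 41 were above background, where 34.8% of all channel genes were. No gene passed in 14 of the runs, and none of the runs had all its genes above the limit. Scn1a, Scn9a and Scn7a, and their near neighbours Scn3a and Scn2a, all had at most 21. The run of Aqp2, Aqp5 and Aqp6 had brightest probe sets at 73, 800 and 36, and that of Kcnk5 and Kcnk16 had 235 and 22, so neighbours could lie on opposite sides of the limit.

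Other genes of ion transport were above background more often than the channel genes. In 4 lists of such genes 52 of 87 measured members (59.8%) passed, close to the 62.8% of all named genes. Like the channel genes, these lists were chosen with earlier results of these data known. The values named from these lists are of the brightest probe set, and other probe sets of a gene can lie below the limit. For example, Vdac1 had its lowest probe set at 21 and Atp2a2 at 15. Calcium and organelle channels had 16 of 21 above the limit. Stim1 and Stim2, the calcium sensors of the endoplasmic reticulum, had 746 and 1175, and Orai1, Orai2 and Orai3, the plasma membrane pores that they open, had 292, 231 and 374. Vdac1, Vdac2 and Vdac3, pores of the outer mitochondrial membrane, had 5942, 6957 and 3551. The ryanodine receptors Ryr1, Ryr2 and Ryr3, calcium release channels of muscle and neurons, had 17, 14 and 22.

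Other plasma membrane channels had 14 of 29 members above the limit. Lrrc8a and Lrrc8c, subunits of the anion channel that opens on cell swelling, had 903 and 1135. P2rx4, an ATP-gated channel, had 352, and Hcn2 and Hcn3, pacemaker channels, had 36 and 30. Of the pumps and exchangers of sodium, potassium and calcium 11 of 19 passed, with Atp1b1, the beta subunit of the sodium pump, at 12324 and Atp2a2, the calcium pump of the endoplasmic reticulum, at 4082. Of chloride and bicarbonate cotransport genes 11 of 18 passed, with Slc12a2, the sodium-potassium-chloride cotransporter of secretory epithelia, at 799 and Slc12a3, the sodium-chloride cotransporter of the kidney tubule, at 24.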

How the data were processed

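Total RNA from 1 sample was labelled with biotin and measured on an Affymetrix array, per the labels' protocols. The authors deposited 1 intensity for each of 45101 probe sets, all whole numbers on a linear scale. Per the submitters' processing notes, affy and RMA were used. RMA removes background, brings arrays to a common distribution and joins the probes of a set into 1 value. Tool versions, the arrays processed together and the step to whole linear numbers were not given in the sources used. RMA compresses differences between low intensities.

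Probe sets were named through the platform annotation: 34945 had 1 symbol, and 932 with several symbols were not counted. All 178 channel genes matched the RefSeq gene table (GRCm38.p6) with the same symbol. The brightest probe set gave the level of its gene, and the limit of 46.5 the 95th percentile of the background probe sets. Genes at 4 times the limit or more were named with all their probe sets, and other members with their brightest value or more. No p-value is given, since 1 array has no replicates, and an array has no read depth. The members, families and lists were chosen with earlier results of these data known. Alternatives changed the percentile, the background genes, the probe set taken for a gene, the probe sets used and the distance from the limit. Tables were made with pandas 2.3.3 and NumPy 2.4.6 under Python 3.11.15, and plots with matplotlib 3.10.9.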

Additional observations from a re-analysis of the deposited data

Results flagged for a closer look

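One probe set annotated to both Xndc1 and Trpc2 had an intensity of 104, above the background limit of 46.5, and entered no gene count because it has 2 symbols. Trpc2 is the pheromone channel of the vomeronasal organ, and its own probe sets had 36 and 31. A further probe set shared by Trpc2 and Xntrpc had 33. Which of the overlapping genes gave the signal was not tested.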

How the results depend on the processing

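The channel share stayed below that of all named genes under all 9 alternatives, while the counts moved, and at the 2 lower limits more channel genes passed than did not. At the 90th percentile of background (a limit of 25.5), 102 of 178 channel genes (57.3%) were above it, against 73.2% of all named genes, and with olfactory and vomeronasal receptors as background (29.3) the shares were 96 genes (53.9%) and 70.5%. With the 99th percentile (84.75) they were 35 genes (19.7%) and 55.3%, with 2 times the limit 34 genes (19.1%) and 54.1%, and with the lowest probe set of a gene 32 genes (18%) and 39.7%. The count of channel genes with every probe set above the limit was 59 and 55 at the 2 lower limits, 17 at the 99th percentile and 15 at 2 times the limit. Of the 87 other ion transport genes 32 passed with the lowest probe set. The count with Y-linked genes as background, of which 1 of 6 passed the limit of 46.5, was 62. It was 48 with genes restricted to other organs, of which 3 of 11 passed, 45 with the mean of probe sets, and 56 of 169 without probe sets of marked identifiers. The count of families above the share of all genes, 3 in the report, was 2 to 4 under the alternatives. Of 153 family counts under the alternatives 54 moved by over 1.5 times. All 3 epithelial sodium channel genes passed at the 2 lower limits, and none of the 9 calcium pore genes passed at the 99th percentile or at 2 times the limit. No paired analysis was possible because there is 1 sample. The number of arrays limits the precision of every value.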

Other observations

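Partner proteins of some channels, chosen after the channel values were seen, lay on both sides of the limit. Kcnj11 pores work with a sulfonylurea receptor, and Kcnj11 had 525 on 1 of 2 probe sets, while the receptor genes Abcc8 and Abcc9 had at most 15 and 18, below the limit of 46.5. Clcn7 works with the lysosomal protein Ostm1, and Clcn7 had 278 on 1 of 3 probe sets while Ostm1 had 1093. Kcnd2 and Kcnip2, which assemble with each other, had 727 and 1631 on their brightest probe sets.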
